A study of Caenorhabditis elegans with 4 samples.

Results

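This account covers the NHR-28 binding peaks on the X chromosome of Caenorhabditis elegans. They were taken as every entry placed on X in 3 ChIP-seq peak lists on build WS220, by chromosome and not by width or significance. They number 224 of the 6947 entries in the lists: 185 of 5338 in a list for the whole series, 22 of 806 in the list of ChIP replicate 1 and 17 of 803 in that of ChIP replicate 2. Samples were whole hermaphrodites of strain OP317, 2 of them ChIP and 2 input, with the stage label L1 26dC (first larval stage; the suffix is not explained). The strain carries the allele unc119(ed3) and the transgene wgIs317, in which nhr-28 is joined to TY1, EGFP and FLAG and which also holds unc119. Every sample, inputs included, carried both the transgene and the allele, and no untagged strain was among the samples analysed here. The transgene was brought in by bombardment, and its number of copies and place of insertion were not given. Worms were grown at 20 °C, chromatin was fixed with 2% formaldehyde, and ChIP used antibodies to GFP. Separate cultures are not stated for the replicates, so differences between them measure only the spread between these samples, which may be technical. Input values were not analysed here.

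NHR-28 belongs to the nuclear hormone receptors, transcription factors that bind DNA through a zinc finger domain and, in many family members, respond to small lipophilic ligands. The family is greatly expanded in nematodes. The X chromosome is present in a pair in hermaphrodites and as a single copy in males, and in the body cells of hermaphrodites a dosage compensation complex lowers the transcription of both copies. The tagged gene, nhr-28 (locus tag CELE_C11G6.4), is itself annotated on X in RefSeq's gene table of assembly WBcel235. That table is of another build than the peak lists, so peaks are named here by position and no sequence or gene is assigned to them.

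Each entry carried a start, an end and 1 significance value from the authors' peak caller, a p-value or q-value between 0 and 0.001 where smaller means stronger. Rank 1 is the smallest value of a list. These values are given as the authors' own; they order peaks within a list, and nothing shows that they are on 1 scale across lists. No read counts came with the peaks, so the depth behind each is unknown. A peak was taken as found in another list when it overlapped a peak there by at least 1 bp.

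X held 24 separate regions found in at least 1 replicate list, numbered here 1 to 24 in order along the chromosome. Of these, 15 were in both replicate lists, and 14 of the 15 were series-wide peaks as well. A further 7 were in the series-wide list and replicate 1 alone, and 2 were in the series-wide list and replicate 2 alone. The other 162 series-wide peaks of X were in neither replicate list.

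The strongest replicated region was region 18, at 13700341 to 13701081. This 741 bp peak had rank 10 of the series-wide list with a value of 1.08e-23. Its value was 2.28e-10 in replicate 1 (rank 27) and 7.56e-08 in replicate 2 (rank 40). It was the best-ranked X peak in each replicate list. Region 16, at 11093779 to 11094409 (631 bp), followed the same pattern, with 4.11e-19 series-wide, 7.27e-08 in replicate 1 and 7.98e-07 in replicate 2. Regions 16 and 18 were the 2 regions of X ranked among the first 100 peaks of both replicate lists.

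Region 19, at 14525378 to 14526318 (941 bp), had nearly the same value in the replicates, 6.67e-07 in replicate 1 and 5.37e-07 in replicate 2, and 9.97e-19 series-wide. Its replicate 2 rank was 57 and its replicate 1 rank 118. Region 14, at 8035672 to 8036964, was the widest of the 14 at 1293 bp and had the second smallest series-wide value among them, 4.82e-20. Its replicates were far apart: 1.47e-08 (rank 54) in replicate 1 against 5.06e-04 (rank 532) in replicate 2. The same imbalance was seen in 4 other regions with a rank of at most 130 in replicate 1 and of at least 312 in replicate 2. These limits were set after the ranks were seen, and autosomal pairs were not counted by them.

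Region 7, at 2996743 to 2997476 (734 bp), had 4.09e-16 series-wide, 1.06e-07 in replicate 1 and 5.67e-04 in replicate 2. Region 8, at 4142074 to 4142982 (909 bp), had 2.70e-12 series-wide, 1.56e-08 in replicate 1 and 2.09e-04 in replicate 2. Region 17, at 12362811 to 12363480 (670 bp), had 2.18e-14 series-wide, 7.07e-07 in replicate 1 and 4.38e-04 in replicate 2. All were ranked well ahead in replicate 1. Region 21, at 15607023 to 15607989 (967 bp), completed this set with 1.98e-16 series-wide, 1.44e-06 in replicate 1 and 1.69e-04 in replicate 2.

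Regions ranked higher in replicate 2 were also present. Region 2, at 806422 to 806979 (558 bp), had rank 46 in replicate 2 (1.57e-07) and rank 193 in replicate 1 (1.22e-05), with 7.02e-15 series-wide. Region 13, at 7822954 to 7823371 (418 bp), had rank 83 in replicate 2 (2.84e-06) and rank 229 in replicate 1 (2.68e-05), with 1.64e-14 series-wide. Region 12, at 6296155 to 6296827 (673 bp), had rank 143 (2.90e-05) and rank 299 (7.09e-05) in the same order, with 1.05e-14 series-wide. Neither replicate thus held the better rank throughout. Region 23, at 16929350 to 16929937 (588 bp), was about equal in both, with 9.73e-06 in replicate 1 and 3.56e-05 in replicate 2 (ranks 179 and 162) and 7.35e-15 series-wide.

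The remaining members of the 14 ranked behind the other 12 series-wide and had ranks of 505 to 682 in the replicate lists. Series-wide, both values were still smaller than the median X value of 0.000137. Region 11, at 6033641 to 6033825, was the narrowest at 185 bp, with 1.09e-06 series-wide (rank 819), 6.53e-04 in replicate 1 and 4.01e-04 in replicate 2. Its replicate 1 peak was only 16 bp wide. Region 20, at 14908259 to 14909484, was by contrast 1226 bp wide, with 5.74e-05 series-wide (rank 2180), 6.83e-04 in replicate 1 and 7.11e-04 in replicate 2. Apart from these, the other 12 all ranked within the first 121 peaks of the series-wide list.

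**Figure D1:**
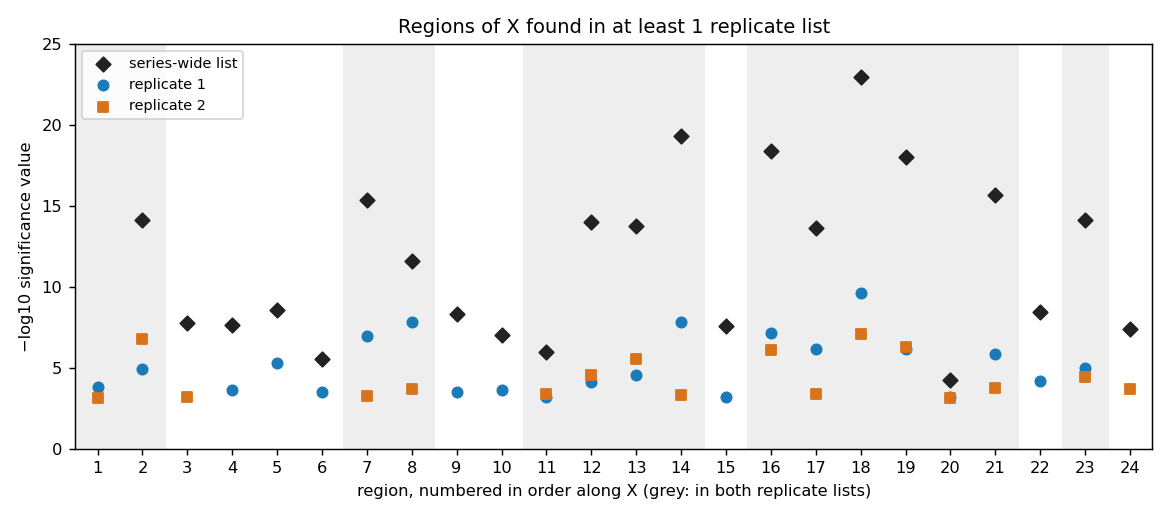
The −log10 significance value (vertical axis) of the 24 regions of X found in at least 1 replicate list, in order along X (horizontal axis), for the series-wide list (diamonds), replicate 1 (circles) and replicate 2 (squares); grey columns mark the 15 regions in both replicate lists. Region 18 is highest in the series-wide list at 22.97, and the replicate points lie between 3.12 and 9.64.

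The replicate peaks of the 15 shared regions lay close together. Their centres were a median of 54.0 bp apart (range 1.5 to 306.5 bp), and 13 of the 15 pairs lay within 100 bp. In 13 of 15 the shared stretch made up at least 70% of each peak. The exceptions were region 11, where the 16 bp replicate 1 peak covered 12.9% of its partner, and region 20. There the replicate 2 peak of 390 bp covered one side of the 1047 bp replicate 1 peak, or 37.2% of it, and the centres were 306.5 bp apart. Region 12 and region 13 had the closest centres among the series-wide peaks, 2.5 and 6.5 bp apart.

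Replicate 1 gave the smaller value in 10 of the 15 regions and replicate 2 in 5. By rank within its own list, however, replicate 1 was ahead in 7 and replicate 2 in 8. Autosomal pairs were not counted in this way. The median autosomal value was likewise smaller in replicate 1, at 0.000198 against 0.000277 in replicate 2. Replicate 1 peaks were the wider in 9 regions and replicate 2 peaks in 6. In all 14 regions held by the 3 lists the series-wide value was smaller than either replicate's. The series-wide peak was also the widest in 13 of 14 and enclosed both replicate peaks in 11 of 14. Its median width over these regions was 703.5 bp, against 552.5 bp in replicate 1 and 520.5 bp in replicate 2. The series-wide list is given for the whole series, and how it was built from the samples is not stated. It is thus not taken as an independent check of the replicate lists.

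**Figure D2:**
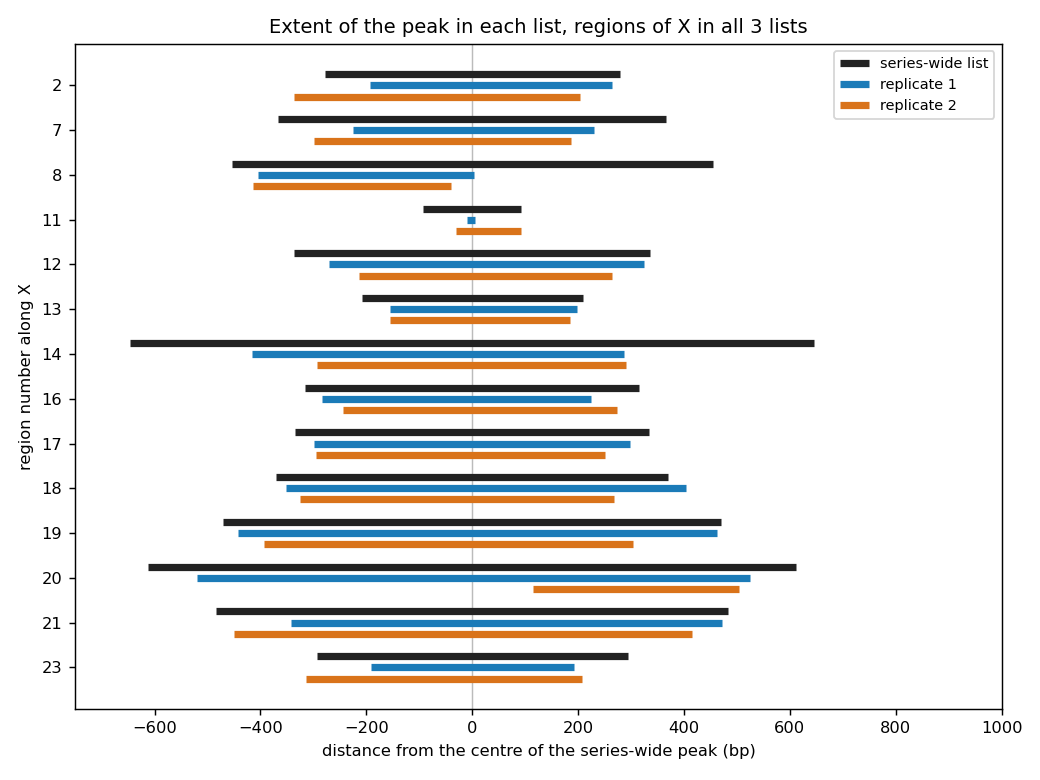
Extent of the peak in each list for the 14 regions of X in all 3 lists (rows, by region number), as distance in bp from the centre of the series-wide peak. The bars of the lists overlap in every row, and region 11 (16 and 124 bp) and region 20 (1047 and 390 bp) have the replicate peaks with the largest ratio of lengths.

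Region 1 was the single replicated region with no series-wide peak in the list analysed here. It lay at 293241 to 293626 in replicate 1 (386 bp, 1.54e-04) and at 293245 to 293625 in replicate 2 (381 bp, 7.51e-04). Its centres were 1.5 bp apart, the closest match on X. The nearest series-wide peaks were 146022 bp to the left and 59605 bp to the right. The numbering of peaks in the series-wide list runs to 5479 over 5338 entries, so a missing entry does not show that the region was not called there.

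The 7 regions shared by the series-wide list and replicate 1 alone ranked between 286 and 962 series-wide, behind 12 of the 14. The strongest was region 5, at 1626906 to 1627317 (412 bp), with 2.65e-09 series-wide and 5.07e-06 in replicate 1. Region 22 followed, at 16056328 to 16056659 (332 bp), with 3.84e-09 and 6.33e-05. Region 9, at 4208633 to 4209528, was the widest of them at 896 bp, with 4.85e-09 and 2.95e-04. Region 10 was its neighbour, at 4222828 to 4223252 (425 bp), with 9.59e-08 and 2.18e-04. Both lay to the right of replicated region 8. Region 4, at 1344820 to 1345232 (413 bp), had 2.15e-08 and 2.36e-04. Region 15, at 9465491 to 9466066 (576 bp), had 2.66e-08 and 6.12e-04. Region 6, at 2902126 to 2902402, was the weakest and the narrowest of these 7 (277 bp), with 2.68e-06 and 3.33e-04.

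Replicate 2 alone supported region 3, at 1092783 to 1093516 (734 bp), with 1.64e-08 series-wide and 6.56e-04 in replicate 2. It also supported region 24, at 17479597 to 17480500 (904 bp), with 3.80e-08 and 2.09e-04. Region 24 is the last supported region on X. Series-wide, region 24 was wider than all 7 regions found with replicate 1 alone, and region 3 than 6 of them.

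The most significant and the widest peak of the whole series-wide list lay on X and was in neither replicate list. It ran from 16343224 to 16379979, a stretch of 36756 bp (36.8 kb), and its value was listed at 0, the only such value of that list. It was 6.56 times as wide as the second widest series-wide peak, which measured 5605 bp and lay on chromosome II at 5882531 to 5888135 (3.21e-18). On X the second widest peak measured 1793 bp, so the region was 20.5 times as wide as that one and 161 times the median X peak. It made up 38.6% of the 95139 bp that series-wide peaks covered on X and 3.13% of the bp covered over all chromosomes. Without it the mean width on X fell from 514.3 to 317.3 bp.

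No replicate peak overlapped the 36.8 kb region. The nearest replicate 1 peaks were 286580 bp to its left and 549472 bp to its right, and those of replicate 2 were 735302 bp and 549349 bp away. Its nearest series-wide neighbours were at 286564 bp and 232347 bp. The widest X peaks of the replicate lists measured 1047 bp and 866 bp. The transgene holds nhr-28, a gene of X, in addition to the worm's own, in ChIP and input samples alike. Where the region lies relative to nhr-28 was not tested, because the gene table and the lists are of different builds.

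After the 36.8 kb region, the 162 X peaks in neither replicate list were mostly weak. Their median value was 0.000205, close to that of the 4000 autosomal peaks in neither list (0.000204). The strongest was a 1336 bp peak at 1503859 to 1505194, with 4.38e-12 and rank 133. It was followed by 11937226 to 11937896 (671 bp, 1.63e-11, rank 157) and 5840976 to 5841524 (549 bp, 4.67e-09, rank 314). The next was the second widest X peak, 6748668 to 6750460 (1793 bp, 6.50e-09, rank 327). The first pair ranked ahead of all 9 regions found in a single replicate list, the third peak behind regions 5 and 22, and the last behind regions 5, 9 and 22.

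Support by the replicates was next set against that of all peaks. In the series-wide list 14 of 185 X peaks, or 7.57% (exact 95% binomial interval 4.20 to 12.4), were in both replicate lists, against 4.50% of all 5338. By contrast 23 of 185, or 12.4% (8.05 to 18.1), were in at least 1 replicate list, against 22.0% of all peaks. The autosomes ranged from 18.4% on I to 27.4% on III for at least 1 list and from 2.82% on IV to 6.40% on III for both. X thus had the lowest share with any support of the 6 chromosomes. Its share with double support was the highest, but the interval of 4.20 to 12.4 includes the 4.50% of all peaks and the 6.40% of III. Of the supported X peaks, 60.9% (14 of 23, 38.5 to 80.3) were in both lists, against 19.6% (17.3 to 22.0) of the 1153 supported autosomal peaks.

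Seen from the replicates, 15 of 22 replicate 1 peaks on X, or 68.2% (45.1 to 86.1), had a replicate 2 partner, against 29.0% in the whole list. In replicate 2 it was 15 of 17, or 88.2% (63.6 to 98.5), against 29.3%. These are the same 15 pairs counted from each list, not 2 separate results. The shares were not adjusted for width, and X peaks were wider than autosomal peaks in both replicate lists. No autosome exceeded 33.9% in replicate 1 or 33.6% in replicate 2. In the less significant part of the replicate 2 list, 6 of 7 X peaks still had a partner, against 53 of 395 autosomal peaks (13.4%). In the same part of replicate 1 it was 2 of 7 against 44 of 396 (11.1%). Nearly all X peaks of the replicates were series-wide peaks too, 21 of 22 and 16 of 17, close to the shares of the whole lists (92.7% and 84.2%). Intervals cover counting error only, and no test over peaks was made, since the peaks of a list share 1 library or the series.

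Strength moved with support. Among the 534 most significant series-wide peaks, 12 of 27 X peaks (44.4%, 25.5 to 64.7) were in both replicate lists, near the 39.5% of all peaks there. Among the same peaks 20 of 27 (74.1%, 53.7 to 88.9) were in at least 1 list, against 87.6% of all peaks. In the rest of the list only 3 of 158 X peaks (1.90%, 0.393 to 5.45) were in at least 1 replicate list, against 705 of 4646 autosomal ones (15.2%, 14.2 to 16.2). The lowest autosome was III among the first 534 peaks (86.6%) and I in the rest (10.0%). X thus had the lowest share with any support of the 6 chromosomes in both parts of the list. Among the first 534 peaks, however, its interval of 53.7 to 88.9 includes the 86.6% of III and the 87.6% of all peaks.

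X peaks were wider than autosomal peaks in all 3 lists. The median X peak measured 229.0 bp series-wide (quartiles 101.0 and 443.0), 456.5 bp in replicate 1 (384.5 and 677.2) and 519.0 bp in replicate 2 (381.0 and 586.0). The autosomal medians were 162.0 bp (75.0 and 279.0), 224.5 bp (145.0 and 352.2) and 223.5 bp (165.0 and 357.0). X had the highest median of the 6 chromosomes in each list. The autosomal medians ran from 153.0 to 170.0 bp series-wide, from 197.5 to 264.0 bp in replicate 1 and from 201.0 to 249.0 bp in replicate 2. The X median was 1.41, 2.03 and 2.32 times the autosomal one in the same order of lists. Among replicate 2 peaks at or under 1e-06 the direction turned, with a difference of -6.0 bp (4 X peaks).

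Series-wide, widths were alike at the 10th percentile (23.0 bp on X and on the autosomes). They already differed at the lower quartile, 101.0 bp against 75.0 bp. In the replicate lists the 10th percentile differed too, at 281.1 bp against 60.6 bp in replicate 1 and 337.4 bp against 92.0 bp in replicate 2. The lower X quartile there was above the upper autosomal quartile. Peaks of at least 500 bp made up 20.0% of series-wide X peaks (37 of 185, 14.5 to 26.5) and 7.12% of autosomal ones (6.43 to 7.86). In replicate 1 it was 10 of 22 X peaks (45.5%, 24.4 to 67.8) against 8.55%, and in replicate 2 it was 9 of 17 (52.9%, 27.8 to 77.0) against 9.80%. No autosome passed 14.0% in any list. At the narrow end the series-wide shares were close: 33 of 185 X peaks (17.8%) and 17.9% of autosomal peaks were under 50 bp.

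Series-wide peaks of at least 1000 bp numbered 6 of 185 on X (3.24%, 1.20 to 6.93), against 44 of 5153 on the autosomes (0.854%). In the replicate lists it was 1 of 22 X peaks against 1.28% of autosomal peaks, and 0 of 17 against 1.40%. Of the 6 series-wide peaks on X, 2 were in both replicate lists, regions 14 and 20. The sixth, beside those already named, lay at 9187148 to 9188647 (1500 bp) and was weak, with 3.70e-04.

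**Figure D3:**
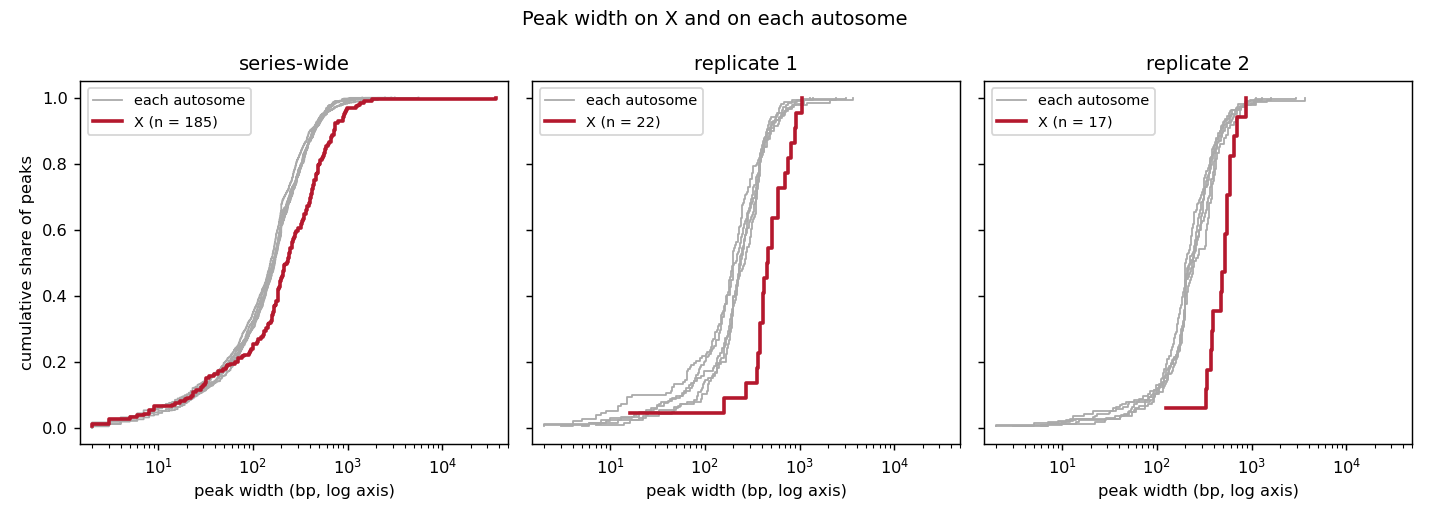
Cumulative share of peaks (vertical axis) by width in bp (log axis) for X (red) and each autosome (grey) in the series-wide list and the replicate lists. The X medians are 229.0, 456.5 and 519.0 bp; the X curve meets the autosomal curves at the narrow end of the series-wide list, and in the replicate lists it lies to their right over most of the range.

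Wider peaks tended to be stronger in these lists, so widths were also compared at like significance. Series-wide X peaks had the larger median in all 6 bands of significance, and it lay above the median of every single autosome in each of them. In the weakest band, from 1e-04 to 1e-03, 109 X peaks had a median of 173.0 bp against 113.0 bp for 2634 autosomal peaks. From 1e-05 to 1e-04 it was 246.0 bp (n = 35) against 169.0 bp, and from 1e-06 to 1e-05 it was 345.0 bp (n = 11) against 233.0 bp. From 1e-08 to 1e-06 it was 500.5 bp (n = 10) against 318.0 bp. From 1e-12 to 1e-08 it was 783.5 bp (n = 8) against 463.0 bp. The ratio was smallest in the strongest band, up to 1e-12, where 12 X peaks had a median of 703.5 bp against 589.0 bp, or 1.19 times. The quartile ranges of X and autosomal peaks overlapped in every band.

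The replicate lists hold few X peaks per band. Replicate 1 had X peaks in 5 bands, with the larger median in 5, above every autosome in 3. Replicate 2 had them in 4 bands, with the larger median in 3, above every autosome in 2. Where X peaks were most numerous, from 1e-04 to 1e-03, the medians were 415.0 bp (n = 8) against 179.5 bp in replicate 1 and 439.0 bp (n = 10) against 196.0 bp in replicate 2.

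**Figure D4:**
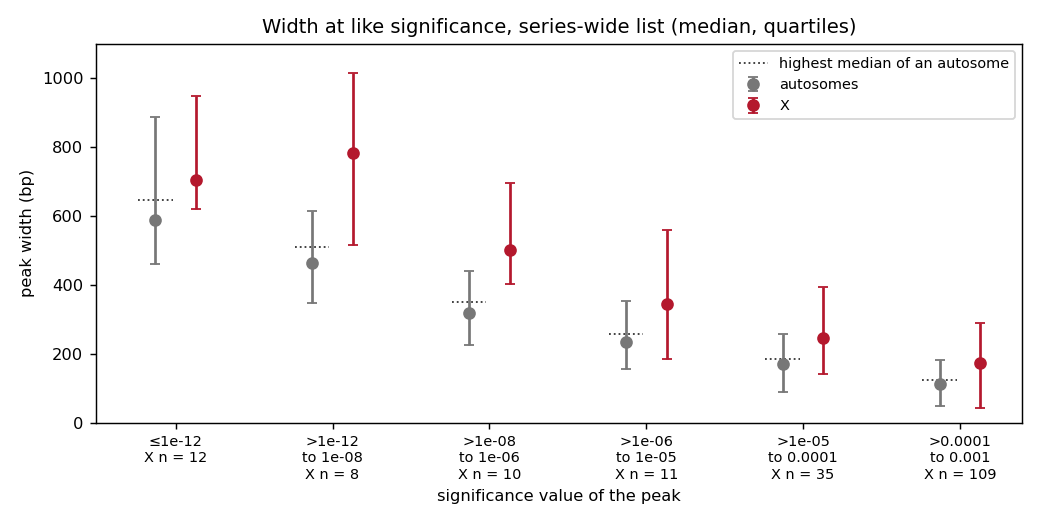
Width in bp (points, medians; bars, quartiles) of series-wide X peaks (red) and autosomal peaks (grey) in 6 bands of significance; dotted lines give the highest median of any autosome. The X median lies above that line in each band, from 173.0 bp in the weakest band to 703.5 bp in the strongest.

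The same held within classes of replicate support, though strength was not alike in all of them. Series-wide peaks in both replicate lists had a median width of 703.5 bp on X (n = 14) and 466.5 bp on the autosomes (n = 226). Those in a single list had 425.0 bp (n = 9) and 246.0 bp (n = 927), and those in neither had 196.5 bp (n = 162) and 137.0 bp (n = 4000). The median −log10 value was equal only for peaks in neither list (3.69). X peaks were the stronger in both lists (14.14 against 10.77) and in a single list (7.67 against 5.59).

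Strength, unlike width, did not differ in the same direction in every list. On the −log10 scale the median series-wide value was 3.86 on X and 3.97 on the autosomes, inside the range of single autosomes (3.83 on IV to 4.15 on III). In replicate 1 it was 4.74 on X against 3.70, above all autosomes (3.57 to 4.02). In replicate 2 it was 3.68 against 3.56, just above the highest autosome (3.66). These directions turned among peaks at or under 1e-06, where the X median minus the autosomal one was 2.12 series-wide, -0.35 in replicate 1 (7 X peaks) and -1.05 in replicate 2 (4 X peaks). The supported X peaks were the strong ones: those in both lists had a median of 14.14 against 10.77 on the autosomes, and those in a single list 7.67 against 5.59. For peaks in neither list both medians were 3.69. Values at or under 1e-06 made up 16.2% of series-wide X peaks (30 of 185, 11.2 to 22.3) and 14.8% of autosomal peaks (13.9 to 15.8).

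Along the chromosome X peaks were sparse. The series-wide peaks ran from 145257 to 17681733, at 10.5 peaks per Mb of that span, whereas the autosomes held 49.8 (V) to 80.5 (III). The median gap between neighbouring X peaks was 56731.5 bp (quartiles 23664.0 and 137608.8), against medians of 7736.0 to 11747.0 bp on the autosomes. Relative to the mean gap the series-wide values of X lay nearer to those of the autosomes. The standard deviation of the gaps was 1.07 times their mean on X, just below the autosomal range of 1.11 to 1.29. The median gap was 0.60 of the mean gap on X, within the autosomal range of 0.51 to 0.63. In the replicate lists, with 21 and 16 gaps, X lay outside the autosomal ranges. There the standard deviation was 0.72 times the mean in each list, against 1.07 to 1.70 (replicate 1) and 1.10 to 1.41 (replicate 2). The median gap was 0.88 and 0.92 of the mean on X, against 0.48 to 0.68 and 0.54 to 0.66.

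The longest stretch of X without a series-wide peak was 654817 bp, from 3117725 to 3772543. The bin of 1 Mb around it held the fewest peaks of any on X, 4, while the 17 full bins had a median of 10 and a highest value of 15. The full bins with 15 peaks started at 6000001 and 14000001. The last, partly filled bin from 17000001 also held 15. Supported regions were spread out: 12 of the 18 bins held a series-wide peak in both replicate lists and 15 held one in at least 1.

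**Figure D5:**
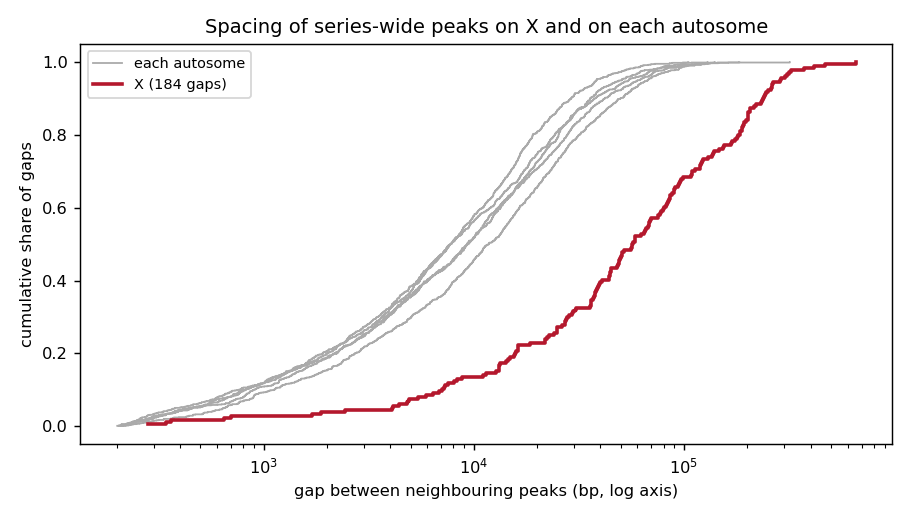
Cumulative share of gaps (vertical axis) by the distance in bp between neighbouring series-wide peaks (log axis) for X (red, 184 gaps) and each autosome (grey). The X curve is shifted to longer gaps, with a median of 56731.5 bp against 7736.0 to 11747.0 bp.

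The 15 regions in both replicate lists were far from one another. The gaps between them had a median of 1206499 bp and ran from 212300 bp, between regions 13 and 14, to 3056814 bp, between regions 14 and 16. Region 15, found in replicate 1 alone, was the one supported region inside that longest gap. In the replicate lists by themselves none of the 21 and 16 gaps on X was within 10 kb, whereas on the autosomes 9.43% to 22.3% were. X held only 1.32 and 0.989 peaks per Mb in these lists, and the shares are not corrected for density. The shortest gap on X was 13300 bp in replicate 1, between regions 9 and 10, and 212676 bp in replicate 2.

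In the series-wide list 25 of 184 X gaps (13.6%) were of 10 kb or less, against 45.7% to 57.8% on the autosomes. These shares are likewise not corrected for the lower density of peaks on X. Linking peaks across such gaps gave 20 groups with 45 peaks, of which 17 were pairs, and left 140 peaks alone. One of the groups of 4 lay at 16929350 to 16931796, where replicated region 23 was followed by 3 narrower peaks. These were 246, 182 and 139 bp wide, with 8.69e-08, 8.44e-06 and 1.42e-05, in falling order of strength away from region 23. The closest neighbours on X were a pair of these, 282 bp apart, at 16930584 to 16930829 and 16931112 to 16931293. Region 20 had a satellite of 163 bp at a distance of 344 bp (1.37e-04). The other group of 4 peaks, at 6245441 to 6260186, held no supported peak.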

How the data were processed

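Peaks of 2 ChIP samples and of the whole series were analysed as 3 deposited lists. They were called with PeakSeq on build WormBase WS220, per the file headers and source fields. Not given in the sources used here: aligner, control, threshold and any pooling of reads. The authors deposited 1 significance value per peak, a p-value or q-value (which one was not stated). From these, widths, ranks, overlaps (at least 1 bp), gaps between peak edges and −log10 values were computed. For −log10, a 0 was replaced by its list's smallest nonzero value. Shares have exact (Clopper-Pearson) 95% intervals. X and autosomes were compared within each list, by medians, without a test. Named peaks are all those in a replicate list, the widest, the 5 strongest in neither list, the closest pair and the longest gap; the 1500 bp peak, other groups and the neighbours of regions 20 and 23 were chosen after their values were seen. Members and comparisons were chosen with earlier results of these data known. Matching was tested on simulated lists. Python 3.11.15, pandas 2.3.3, numpy 2.4.6, scipy 1.17.1 and matplotlib 3.10.9 were used. No genome or annotation of WS220 was used.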

Additional observations from a re-analysis of the deposited data

How the results depend on the processing

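The 14 X regions in all 3 lists became 10 with 50% reciprocal overlap, 12 with centres within 200 bp, 12 at a significance of 1e-06 or less, and 13 without peaks under 50 bp. With 1 replicate list left out, 16 (without replicate 1) and 21 (without replicate 2) series-wide peaks overlapped the list that was left. Such a count cannot fall below 14, so it is no check of that number. The share of X peaks in both lists moved from 7.57% to 40% (12 of 30) at 1e-06 or less. It was 44.4% (12 of 27) among the first 534 peaks and 14.3% (1 of 7, 0.361 to 57.9) among the next 534 (chosen after the data were seen). Autosomal shares in these 2 parts were 39.3% and 2.47%. The partnered share of replicate 1 X peaks was 86.7% (13 of 15) and 28.6% (2 of 7) in the more and the less significant part of that list (chosen later). On the autosomes it was 45.1% and 11.1%. The width difference between X and autosomes, 67.0 bp series-wide, was 276.5 bp at 1e-06 or less and 372.0 bp among supported peaks; in the 4 strongest bands (chosen later) it was 114.5, 320.5, 182.5 and 112.0 bp. At 1e-06 or less it was 177.5 bp in replicate 1 (7 X peaks) and -6.0 bp in replicate 2, where 4 X peaks are left. The strength difference changed sign at 1e-06 or less, to 2.12 series-wide, -0.35 in replicate 1 and -1.05 in replicate 2 on the −log10 scale, and to 5.42 among supported series-wide peaks; the cause was not tested. The median gap rose to 413956.0 bp at 1e-06 or less, as fewer peaks remain, and coverage on X fell to 58383 bp without the 36.8 kb region. Of 63 alternative values 44 moved by less than the set limit (1.5 times for counts, otherwise the interval or the spread between replicates), 14 by more, and 5 changed sign. Some limits were wide. The replicate median gaps of 697765.0 and 984645.0 bp differ by more than the series-wide gap of 56731.5 bp. The replicate strength differences of 1.04 and 0.12 differ by more than the series-wide -0.11. The 44 are thus no measure of stability. Since depth is unknown, absence from a list does not show absence of binding. No paired analysis was possible because the groups that share replicate numbers, ChIP and input, were not compared (input values were not analysed here) and no result came from a test.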
